A study of Mus musculus with 6 samples.

Results

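Intergenic long noncoding RNA regions are stretches of the genome between annotated genes from which long transcripts without a known protein product have been reported. The array used here held 4449 non-control probes, of 56605, whose name in the scanner files is a chromosome interval followed by F or R. The files describe these probes as lincRNA (long intergenic noncoding RNA), and F and R name the forward and the reverse strand. The 4449 probes carried 4061 different names with strand and covered 3229 intervals. All probes that match this form of name were taken, whatever their signal.

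RNA came from a brainstem and cerebellum dissection of mice at 16 weeks, with 3 wild-type samples and 3 samples labelled MSA transgenic. Both genotypes carry the same strain label, C57BL/6, 129 and C3H. The labels do not spell out MSA, and they give neither the transgene, its promoter nor the sex of the mice. Each sample was hybridised to 1 single-colour array. Since the labels do not tell whether each sample is its own animal, the p-values here cover the spread among the arrays at hand, which may be technical.

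Long noncoding RNAs are transcribed by RNA polymerase II like messenger RNAs, and many are spliced and polyadenylated. Some act on the chromatin next to their own gene, some act elsewhere in the nucleus or cytoplasm, and for many the act of transcription or no function at all is known. They are often restricted to few tissues, and the brain is known for a large share of them. Most are present at low levels, and a transcript beside a gene can also be an unannotated extension of that gene or a transcript from its promoter on the other strand.

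The probes that follow are those on which the comparison of genotypes turns, each 60 bases long and printed 5′ to 3′ as the scanner files give it. Capitals mark the polyadenylation hexamers AATAAA or ATTAAA, which lie shortly before the cleavage site of many polyadenylated RNAs. The first 5 probes lie beside the gene Ifi204 on the reverse strand of chromosome 1, and their intervals on build mm9 are chr1:175654606-175672031 and chr1:175705225-175717250.
chr1:175654606-175672031 R, probe 1: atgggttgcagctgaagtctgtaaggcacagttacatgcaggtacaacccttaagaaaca
chr1:175654606-175672031 R, probe 2: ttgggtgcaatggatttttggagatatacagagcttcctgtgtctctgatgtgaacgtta
chr1:175654606-175672031 R, probe 3: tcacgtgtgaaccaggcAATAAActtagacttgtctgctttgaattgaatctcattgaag
chr1:175705225-175717250 R, probe 1: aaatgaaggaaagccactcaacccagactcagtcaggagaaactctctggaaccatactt
chr1:175705225-175717250 R, probe 2: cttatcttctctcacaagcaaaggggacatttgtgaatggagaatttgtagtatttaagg
The next 3 are the forward-strand probe of chromosome 2 that passed the background on the transgenic arrays alone, and both probes of the interval after Zfp281.
chr2:84422868-84429877 F: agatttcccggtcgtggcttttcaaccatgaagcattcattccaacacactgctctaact
chr1:138528250-138538250 F, probe 1: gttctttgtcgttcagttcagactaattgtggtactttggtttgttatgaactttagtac
chr1:138528250-138538250 F, probe 2: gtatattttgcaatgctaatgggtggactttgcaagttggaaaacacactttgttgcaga
The last 5 are the probe with the smallest p among those lower in the transgenic samples, and both strands of the 2 intervals that had opposite directions on F and R with the smallest p.
chr14:106562325-106660675 F: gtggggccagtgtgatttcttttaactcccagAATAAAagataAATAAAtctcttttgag
chr1:173250734-173259306 F: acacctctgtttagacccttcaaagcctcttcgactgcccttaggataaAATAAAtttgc
chr1:173250734-173259306 R: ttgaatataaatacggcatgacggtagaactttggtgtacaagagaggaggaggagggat
chr2:143988645-143993945 F: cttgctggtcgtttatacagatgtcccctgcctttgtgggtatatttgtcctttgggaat
chr2:143988645-143993945 R: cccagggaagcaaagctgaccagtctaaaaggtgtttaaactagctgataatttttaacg

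The hexamers were less frequent in the region probes than elsewhere on the array. AATAAA occurred in 4.0% of the region probes and ATTAAA in 2.56%, and 6.45% (287 probes) held at least 1 of them. Among the 52156 other probes these shares were 10.3%, 3.97% and 13.95%. Of the probes of RefSeq long noncoding RNA genes, 17.0% held at least 1. Read on the other strand (TTTATT or TTTAAT), a match was found in 4.72% of the region probes and 6.50% of the others. The forward matches therefore exceeded the reverse ones in both sets, by less in the region probes. A match describes the letters of the probe and is no mapped cleavage site.

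The intervals ranged from 62 to 538251 bases on mm9, with a median of 7207. Of the 3229 intervals, 832 had probes for both strands, 1236 for F only and 1161 for R only. More than 1 probe was present for 316 of the names, up to 6. A position was given for 4358 of the 4449 probes, and each of these lay inside its interval and on the strand its name gives. Of the intervals, 1740 (53.9%) overlapped another one, so many probes read neighbouring stretches of 1 locus and are not independent.

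The name intergenic did not hold for every interval under the gene names used here. An interval that contained a probe of a named gene was found for 891 of the region probes (20.03%), on the same strand for 491 of them (11.04%). For 175 (3.93%) that gene was protein-coding and on the same strand. Several intervals lie over long noncoding RNAs that have since been named. From a list of 50 such genes, 13 had a probe inside an interval of the same strand, and 24 region probes fell in these intervals. Among them were intervals over Rian and Mirg, maternally expressed RNAs of the imprinted Dlk1 domain, over Pvt1, the neighbour of Myc, and over Gas5, a host gene of small nucleolar RNAs.

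Detection was read from the flag with which the scanner software marks a spot as well above background. Wild-type replicates 1, 2 and 3 had 52.6%, 64.1% and 60.9% of the 4449 region probes above background. The transgenic replicates had 62.5%, 65.4% and 61.0%. Wild-type replicate 1 was the lowest, and the other 5 arrays lay close together. That array was alone on its slide, and its 75th percentile of signal, the value used for scaling, was 406 intensity units where the other arrays had 535 to 609. The transgenic mean of 63.0% ± 2.20 (SD, n = 3) and the wild-type mean of 59.2% ± 5.93 (SD, n = 3) differed by 3.74 percentage points (two-sided exact permutation test, p = 0.4, the smallest possible being 0.1). Among the 5 arrays of the shared slide the difference was 0.44 percentage points (exact permutation p = 0.9).

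About as many region probes were seen on every array as were not. On all 6 arrays, 2219 (49.9%) were well above background, and 1335 (30.0%) were so on none. The rest passed on some arrays, and 2635 (59.2%) passed on all arrays of at least 1 genotype, which is the set that was tested for a difference. The detected share on all 6 arrays was 71.6% for the 38355 probes of protein-coding genes and 33.0% for the 4804 probes of RefSeq long noncoding RNA genes. The region probes thus stood between the coding and the named noncoding genes on each array. A probe below background has only a bound on its signal, and dim probes cannot be told from absent RNA. In bulk tissue, fewer cells of a type and less RNA per cell cannot be told apart either.

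**Figure D1:**
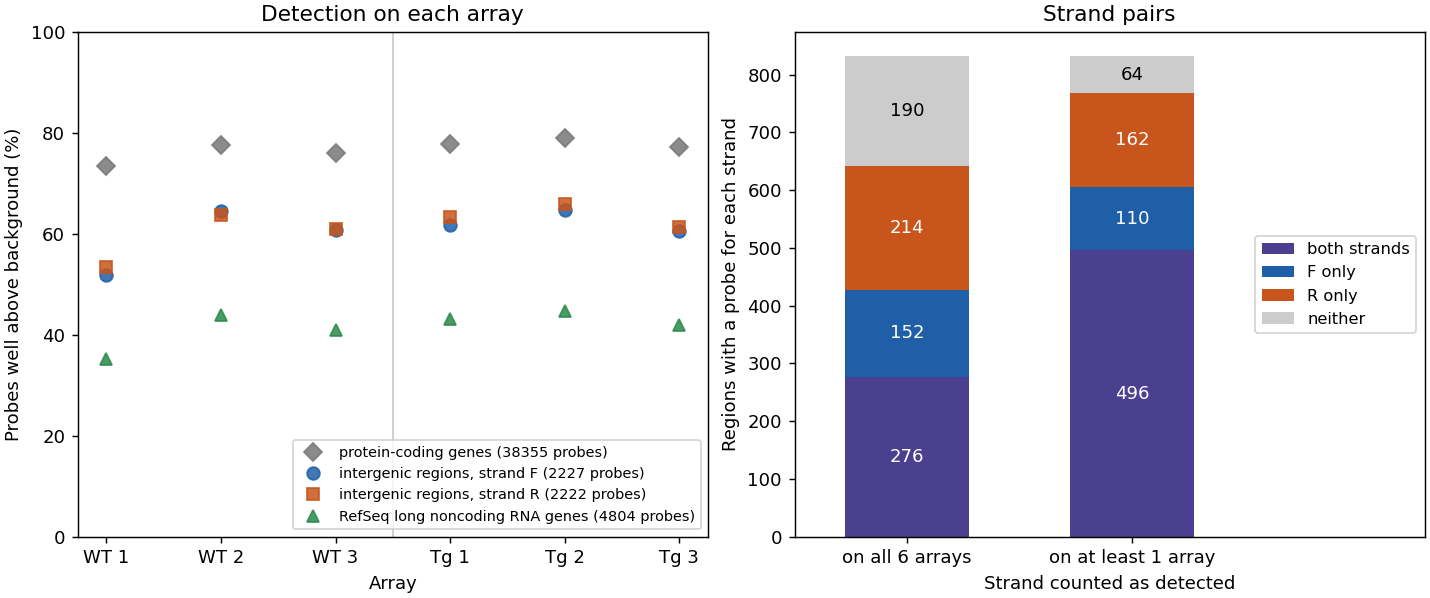
Left, the share of probes well above background (%) on each of the 6 arrays (WT, wild type; Tg, transgenic) for the F and R region probes, the protein-coding genes and the RefSeq long noncoding RNA genes. Right, the number of regions with a probe for each strand in which both, 1 or neither strand was detected, under the rule of all 6 arrays and of at least 1 array. The F and R points nearly coincide on every array, wild-type replicate 1 is the lowest, and 276 of 832 strand pairs were detected on both strands on all 6 arrays.

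Detection varied with the length of the interval and with its surroundings, and over all region probes hardly with its strand. F probes were detected on all 6 arrays at 49.7% and R probes at 50.1%. Probes of intervals under 1000 bases were detected at 40.0%, those of 1000 to 10000 bases at 53.5%, those of 10000 to 50000 bases at 50.6% and those of 50000 bases or more at 57.8%. Probes with AATAAA or ATTAAA were detected at 55.7%, and those without at 49.5%. By chromosome the share ran from 40.5% on chromosome 3 to 60.6% on chromosome 17.

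Intervals near genes were detected more often than remote ones. The share on all 6 arrays was 57.2% where a named gene's probe lay inside the interval, 52.5% where the nearest lay under 10000 bases away, 46.9% at 10000 to 50000 bases, 44.1% at 50000 to 200000 bases and 40.2% beyond that. Detection was also compared by the strand of the nearest gene probe. With the gene probe inside the interval, the shares were 61.4% on the same strand and 52.8% on the opposite one. Under 10000 bases away, region probes on the same strand as that gene probe were detected at 58.2% and those on the opposite strand at 45.01%. At 10000 to 50000 bases the shares were 46.8% and 46.9%, at 50000 to 200000 bases 46.6% and 41.3%, and beyond that 42.9% and 37.7%. The strand of the gene probe was the more frequently detected one in each class but that of 10000 to 50000 bases. These shares are descriptions, since overlapping intervals share transcripts, and the distance is to the gene's probe and not to its end.

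Strand pairs gave the detection of both strands of 1 interval. On all 6 arrays both strands were detected in 276 of the 832 pairs (33.2%), F alone in 152, R alone in 214 and neither in 190. A strand counted as detected when any of its probes was, and within the pairs this held for R in 58.9% and for F in 51.4%. R was detected in 64.5% of the pairs with F detected and in 53.0% of those without. When 1 array sufficed, both strands were detected in 496 pairs and neither in 64. The 2 probes of a pair can read the same stretch: of 821 pairs with mapped probes, 214 (26.1%) had an F and an R probe that overlapped, and in 493 (60.0%) the nearest F and R probes were within 1000 bases. Detection also differed between probes of the same strand. Of the 316 names with several probes, all were detected on all 6 arrays in 112, none in 96 and some in 108.

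The comparison of genotypes asked which regions differed between MSA transgenic and wild-type tissue. None of the 2635 tested region probes passed an adjusted p of 0.05 (limma with Benjamini-Hochberg adjustment over all 38463 tested probes), where 0.0286% of all tested probes did (11 probes, 10 higher and 1 lower). The lowest adjusted p of a region probe was 0.0701. Calls depended on how the arrays were weighted: with limma's array weights, an alternative setting, 2 region probes were called where 0.244% of all tested probes were, and at an adjusted p under 0.1 without weights it was 1, where 0.117% were. At an unadjusted p under 0.05 there were 169 region probes (6.41%), 86 higher and 83 lower in the transgenic samples, and 5.59% of all tested probes. Of the tested probes of RefSeq long noncoding RNA genes, 8.37% had such a p (limma). Of the 86, 23 were tested through the transgenic arrays only, where the filter favours that direction. Over the 2219 region probes above background on all 6 arrays the count was 135 (6.08%), 63 higher and 72 lower. Of the other probes of that kind 4.97% had such a p (limma). The number of arrays limits what such a test can call, and the median standard error of the log2 difference was 0.21 for the region probes and 0.14 for all tested probes.

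The share of region probes whose groups did not overlap was near the background. In 364 region probes (13.8%) all samples of 1 genotype lay above all of the other, and in 13.9% of all tested probes. In 226 of them (8.58%) the transgenic samples were the higher ones and in 138 (5.24%) the lower ones, where all tested probes had 6.68% and 7.26%. The median log2 difference (transgenic minus wild type) was 0.08 over the tested region probes and -0.01 over all tested probes, and 58.4% of the region probes were on the higher side against 48.1%. The probes of RefSeq long noncoding RNA genes were shifted as well, with a median of 0.04 and 55.1% on the higher side. Without wild-type replicate 1 their median was -0.04. The shift of the region probes did not hold without 1 array either. Without wild-type replicate 1 the median over the region probes was -0.03, and per array the median level of the 2635 probes was -3.01 ± 0.21 (SD, n = 3) in wild type and -2.94 ± 0.07 (SD, n = 3) in transgenic samples (exact permutation p = 0.9). Of the tested region probes, 416 passed the filter without passing on all 6 arrays. Most of these passed through the genotype in which they were higher, so that the filter itself favours a difference. The counts and medians over all tested region probes include them, and none over them alone is read. The number of arrays above background is given for each of them that is named below. Over the 2219 probes above background on all 6 arrays the median was 0.03, and 54.1% were on the higher side against 45.1% of the other probes of that kind. Their groups were apart with transgenic higher in 8.56% and lower in 5.72%, where those other probes had 6.09% and 7.66%.

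**Figure D2:**
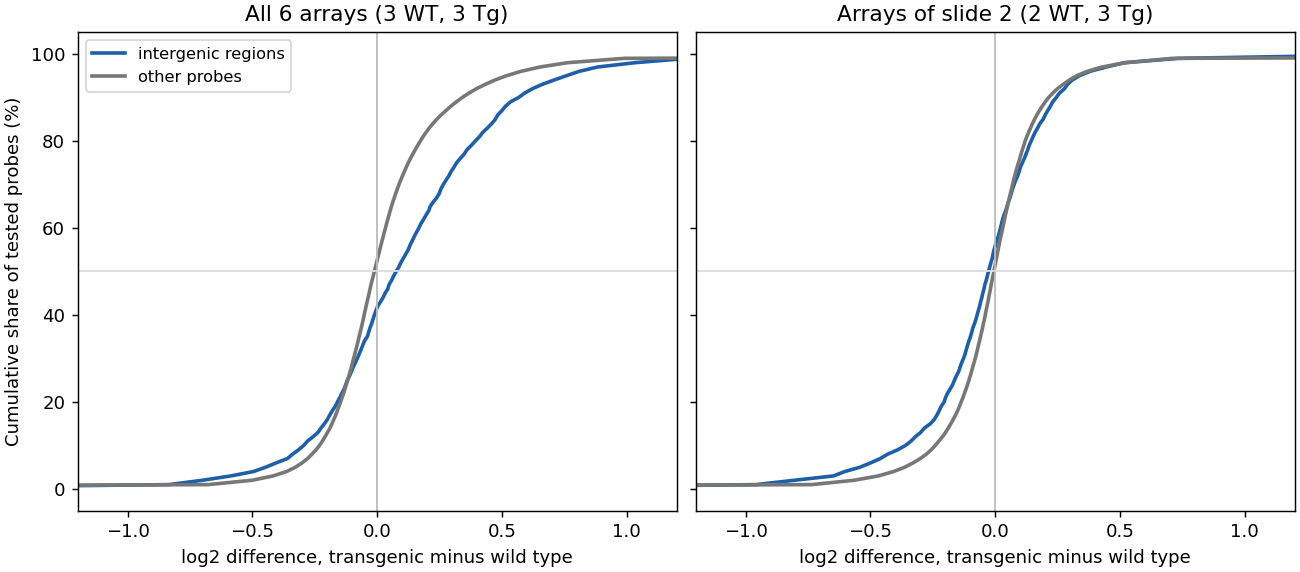
Cumulative share (%) of tested probes by log2 difference, transgenic minus wild type, for 2635 region probes and 35828 other probes, left over all 6 arrays and right over the 5 arrays of 1 slide. On the left the curve of the regions lies to the right of the other probes (medians 0.08 and -0.01), and on the right the medians are -0.03 and -0.01.

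The 8 probes with the smallest p on each side were looked at singly. Of those on the higher side, 4 were above background on all 6 arrays, and the other four passed the filter only through the transgenic arrays, where they were higher. Of those on the lower side, 7 were above background on all 6. Among the region probes above background on all 6 arrays, tested on their own with the other probes of that kind, the lowest adjusted p was 0.185 (limma).

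The smallest p of all region probes was on chromosome 1 beside Ifi204, a member of the interferon-inducible HIN-200 family that binds DNA and regulates the innate immune response. Levels are given as log2 of the signal relative to the 75th percentile of the array. The first probe of chr1:175654606-175672031 R read -5.51, -4.96 and -5.29 in the wild-type samples and -3.36, -3.64 and -3.22 in the transgenic ones. All 3 transgenic samples lay above all wild-type ones, and the probe was well above background on 2 wild-type and 3 transgenic arrays, so that 1 wild-type value is only a bound and the probe passed the filter through the transgenic arrays. The log2 difference was 1.85 ± 0.18 (SE, 3 against 3), with an unadjusted p of 4.72e-05 and an adjusted p of 0.0701 in limma. On the 5 arrays of the shared slide the difference was 1.72, and after another background correction (normexp with an offset of 50 units, which by itself shrinks differences of dim probes) it was 0.55.

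The other probes of this interval pointed the same way with smaller differences. The third probe, which begins at the base after the end of the first (chr1:175655106-175655165 and chr1:175655046-175655105), read -4.90, -4.36 and -5.00 in wild type and -3.64, -4.04 and -3.21 in transgenic samples. Its groups did not overlap, and its log2 difference was 1.12 ± 0.26 (limma, adjusted p = 0.513). The second probe, at chr1:175657659-175657718, read -4.87, -4.69 and -4.61 against -4.10, -3.97 and -3.81, again without overlap. Its log2 difference was 0.76 ± 0.12 (limma, adjusted p = 0.232). The F probe of the same interval was well above background on 1 wild-type and 2 transgenic arrays and was not tested.

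A neighbouring interval on the same strand, chr1:175705225-175717250, gave the same direction. Its first probe read -2.75, -3.08 and -3.14 in wild type and -1.85, -2.18 and -1.78 in transgenic samples. The groups did not overlap, with a log2 difference of 1.05 ± 0.16 (limma, adjusted p = 0.214), which was 1.17 on the shared slide. The second probe passed the background on all 3 transgenic arrays and on no wild-type array. Its level in the transgenic samples was at least 1.27-fold higher, counted against the dimmest signal that passed the background on each wild-type array, with a measured log2 difference of 0.67 (limma, adjusted p = 0.843). The F probe of this interval was above background on no array.

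The genes around these intervals were read from their own probes. Both Ifi204 probes, on the same strand between the intervals, differed by 1.90 ± 0.29 and 1.48 ± 0.21 on the log2 scale (adjusted p = 0.214 and 0.180 in limma). The probe with 1.90 was above background on 2 wild-type and 3 transgenic arrays. It passed the filter through the transgenic arrays, which favours this direction, and 1 of its wild-type values is only a bound. A probe of Ifi205, of the same gene family, had 1.79 ± 0.49 (limma, adjusted p = 0.659) and was above background on 1 wild-type array. A second Ifi205 probe was above background on no array. Both probes of Ifi202b passed on 1 transgenic array and no wild-type one, and were not tested. They read -3.05 and -3.19 in transgenic replicate 1 and -6.47 or lower in every other sample. Mndal, another member of the family, read 0.21 ± 0.32, and 1 probe of Ifi208, on the opposite strand, read -0.13 ± 0.14. The other Ifi208 probes were above background on no array. A probe of a transcript without a gene name lies inside the second interval on its strand. It passed on 3 transgenic and 0 wild-type arrays, so the filter favoured its difference of 1.16 ± 0.47 (limma, adjusted p = 0.843). An interval that overlaps the first one, chr1:175660642-175671878 R, was chosen here after its values were seen. It read -4.13, -4.09 and -4.73 in wild type and -4.04, -3.91 and -1.18 in transgenic samples, so that 1 transgenic sample carried its log2 difference of 1.27 ± 0.78. Neither the region probes nor these genes passed the threshold, and whether the reverse-strand signal belongs to transcripts of their own or to Ifi204 transcripts was not tested.

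**Figure D3:**
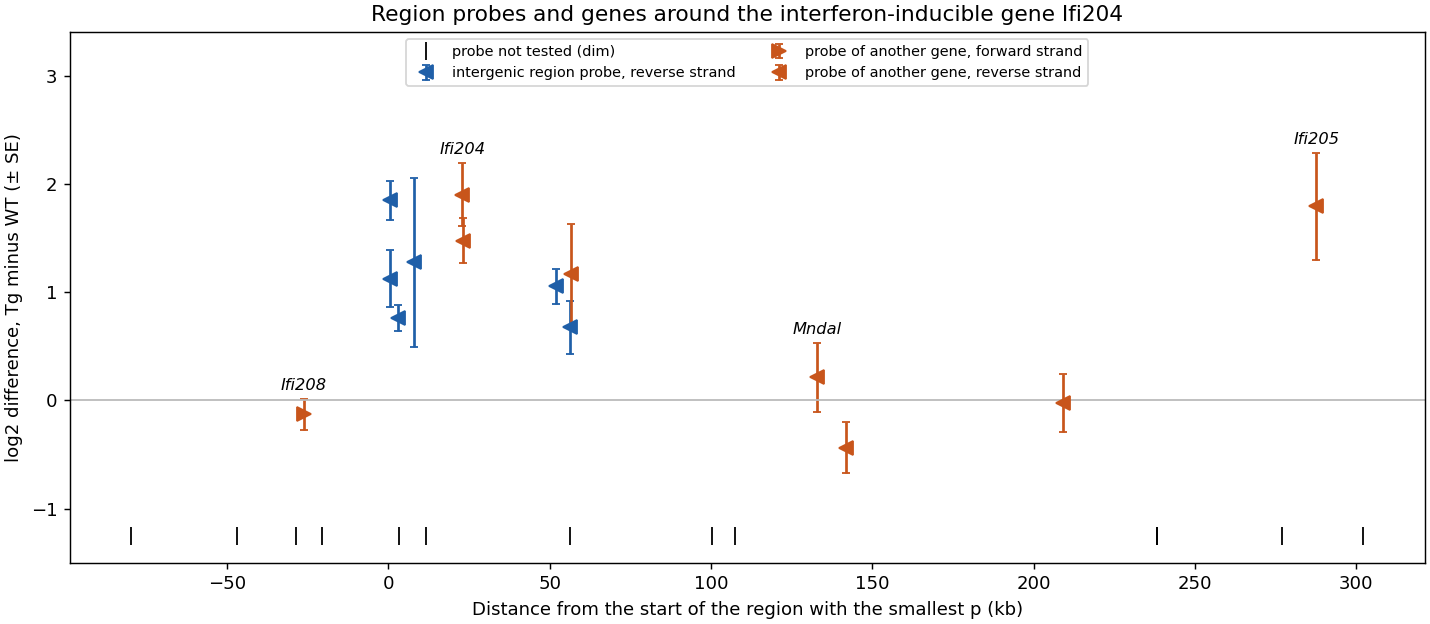
The log2 difference, transgenic minus wild type (± SE), of every tested probe around Ifi204 against the distance in kb of its position from the start of the region with the smallest p. Blue marks region probes, orange marks probes of other genes, arrowheads give the strand, and ticks mark probes too dim to test. The 6 tested region probes lie between 0.67 and 1.85 within about 56.3 kb, all on the reverse strand, and Ifi204 lies between them.

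Several marker lists also differed between the genotypes in their summed level. All 9 microglial markers on the list (C1qa, Cd68, Trem2 and others) had a positive log2 difference, with a median of 0.59, none was called, and 7 of 9 had an unadjusted p under 0.05 in limma. Their summed level was 4.30 to 4.31 in wild type and 4.79 to 4.95 in transgenic samples. Of 7 oligodendrocyte markers, 6 were on the lower side, with a median of -0.36 and a summed level of 8.08 to 8.35 against 7.87 to 7.90, and 1 was called lower (Klk6, limma). The 6 markers of cerebellum were well above background on all 6 arrays and all on the lower side, with a median of -0.23, none called, and a summed level of 8.82 to 8.92 in wild type and 8.62 to 8.72 in transgenic samples. The summed levels of the other lists overlapped. The 6 brainstem markers, all above background on all 6 arrays, had a median of 0.11, and the 5 astrocyte markers -0.04. The members of these lists were spread, and none was called. Of the brainstem markers 4 were higher and 2 lower, from -0.24 (Chat) to 1.51 (Slc6a2). Of the astrocyte markers 2 were higher and 3 lower, from -0.09 (Slc1a3) to 0.59 (Gfap, limma, adjusted p = 0.325). Of 6 forebrain markers 3 were above background on all 6 arrays, with a median of 0.17 over the 5 tested. The part of any of these lists in the differences of the region probes was not tested.

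Elsewhere in the genome, the higher side held 5 more of these probes, from 5 intervals. On chromosome 11, chr11:68200716-68214458 R, 38945 bases from a probe of Pik3r5, a regulatory subunit of phosphoinositide 3-kinase gamma, read -5.93, -5.53 and -5.57 in wild type and -4.59, -4.90 and -4.63 in transgenic samples. The groups did not overlap, and the log2 difference was 0.97 ± 0.15 (limma, adjusted p = 0.227). It passed the background on 1 wild-type and all 3 transgenic arrays, so the filter favoured this direction and the wild-type level is largely a bound. Its F probe passed on none.

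On chromosome 2, chr2:84422868-84429877 F read -7.34, -6.71 and -6.70 in wild type and -5.74, -4.98 and -5.11 in transgenic samples. It passed the background on each transgenic array and on no wild-type one, so the level was at least 1.32-fold higher, with a measured log2 difference of 1.64 ± 0.27 (limma, adjusted p = 0.246). The nearest gene probe, for Ctnnd1 (a catenin of cell junctions) on the opposite strand, had a log2 difference of -0.00016.

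On chromosome 8, chr8:110197171-110206546 F read -6.00, -5.39 and -5.73 against -4.98, -4.61 and -4.66, with a log2 difference of 0.96 ± 0.19 (limma, adjusted p = 0.341). It passed the background on 1 wild-type and all 3 transgenic arrays, with the same limit as the chromosome 11 probe. The R probe of that interval, measured on 3 wild-type and 2 transgenic arrays, had -0.20 ± 0.20. On the X chromosome, chrX:98989930-98994344 F read -5.38, -5.10 and -5.17 against -4.75, -4.26 and -4.46, a difference of 0.73 ± 0.15 (limma, adjusted p = 0.411). Both sets of groups were apart, by less than in the probe beside Ifi204. The X chromosome interval contains a probe of the named gene 8030474K03Rik on its strand. The nearest tested gene probe, of Gm3858 on the opposite strand, had 0.19.

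On chromosome 15, chr15:73455424-73477275 R had 2 probes that did not go together. The first read -4.48, -4.13 and -4.44 in wild type and -3.71, -3.75 and -3.81 in transgenic samples, with a log2 difference of 0.59 ± 0.12 (limma, adjusted p = 0.370). The second, at chr15:73476045-73476104, had overlapping groups and a difference of -0.09 ± 0.18. Slc45a4, a solute carrier gene on the same strand 18987 bases away, had -0.04.

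**Figure D4:**
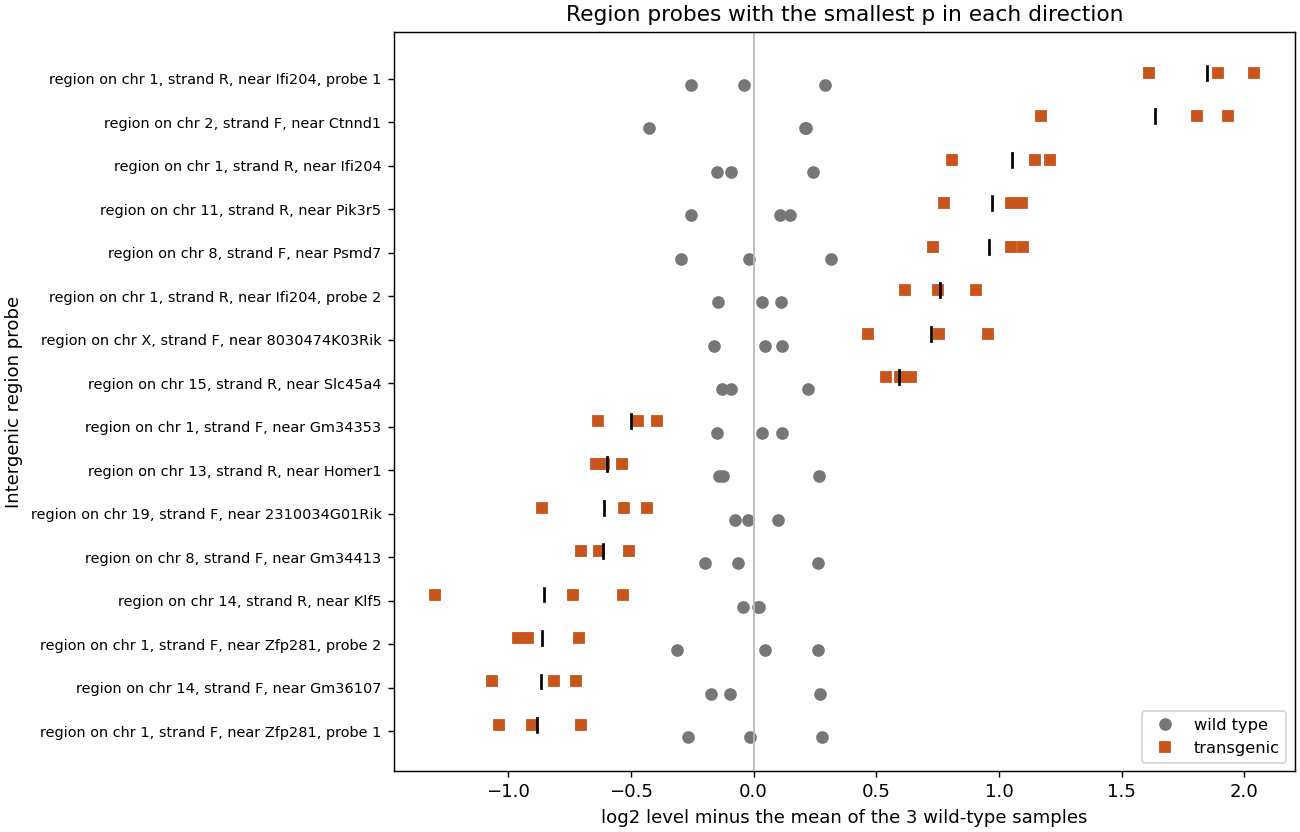
The 16 region probes with the smallest p, 8 on each side. Each point is 1 sample, plotted as its log2 level minus the mean of the 3 wild-type samples, with grey circles for wild type, orange squares for transgenic and a black bar for the transgenic mean. The groups do not overlap in any of the 16, which were chosen for their p, and the mean differences run from -0.88 to 1.85.

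On the lower side the leading region was that of chromosome 14, chr14:106562325-106660675 F, an interval of 98351 bases. It read -4.31, -4.38 and -3.94 in wild type and -5.02, -4.93 and -5.27 in transgenic samples. The groups did not overlap, and the log2 difference was -0.87 ± 0.16 (limma, adjusted p = 0.308), with -0.91 on the shared slide. Its probe holds AATAAA at 2 places, and the R probe of the interval was above background on no array.

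Both F probes of chr1:138528250-138538250, an interval that starts after the probe of Zfp281 on the same strand, were lower. Zfp281 encodes a zinc finger transcription factor known from embryonic stem cells. The first probe read 1.01, 0.72 and 0.47 in wild type and 0.03, -0.17 and -0.30 in transgenic samples, a log2 difference of -0.88 ± 0.17 (limma, adjusted p = 0.329). The second, at 7.38 kb from the start of the interval where the first lies at 1.33 kb, read -4.34, -4.13 and -4.70 against -5.31, -5.10 and -5.35, a difference of -0.86 ± 0.17 (limma, adjusted p = 0.341). Neither pair of groups overlapped. The probe of Zfp281, 1826 bases before the interval, differed by -0.88 ± 0.11 on the log2 scale (adjusted p = 0.142 in limma).

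The reverse strand of this interval behaved otherwise. Its R probe differed by 0.75 ± 0.60 on the log2 scale (adjusted p = 0.843 in limma), and it read -3.36, -1.30 and -1.02 in wild type and -1.21, -1.09 and -1.13 in transgenic samples. Wild-type replicate 1 alone was low there, and without it the difference was 0.02. The other tested probes of the surrounding regions had differences of -0.31 to 0.32 with the exception of 1 transcript probe, whose 0.79 came from the same array.

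The other 5 probes on the lower side lay in intervals of 251 to 69726 bases. Their log2 differences were -0.61 ± 0.14 for chr19:46419916-46421753 F, -0.60 ± 0.14 for chr13:94187304-94188195 R, -0.50 ± 0.12 for chr1:139847592-139848243 F, -0.61 ± 0.14 for chr8:124569775-124639500 F and -0.86 ± 0.20 for chr14:99753319-99753569 R (limma, adjusted p = 0.464, 0.483, 0.501, 0.501 and 0.517). The chromosome 13 interval lies 12430 bases from a probe of Homer1, a scaffold protein of the postsynaptic density, whose own probe on the opposite strand had 0.09. The nearest tested gene to the chromosome 1 probe, at 111846 bases and on the opposite strand, was Ptprc, which encodes the leukocyte antigen CD45 and had 0.95. The chromosome 14 probe was above background on 2 of 3 transgenic arrays.

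Detection itself separated the genotypes in few regions. Of the region probes, 8 passed the background on each transgenic array but on none of wild type, and 1 had the opposite pattern (0.18% and 0.022%). Among the other probes of the array these shares were 0.27% and 0.021%, so both sets had more such probes on the transgenic side. Passing on all arrays of a genotype was rarer in wild type (2261 region probes) than in transgenic samples (2593). Wild-type replicate 1, with the lowest detected share, is among the arrays that had to pass, and its part in these counts was not tested. Beside those of chromosomes 1 and 2 above, chr10:98761521-98885681 F was at least 1.51-fold higher. Against the dimmest signal that passed on each wild-type array, chr17:6265275-6362150 F was 1.32-fold, chr5:124485370-124502361 R 1.25-fold and chr3:19793699-19822899 R 1.36-fold higher. These folds are no lower bounds, since in each a wild-type spot that did not pass was brighter than the dimmest passing one of its array. On wild-type replicate 2 the chromosome 17 probe read 10.1 units, where the dimmest passing signal was 9.39. Adjusted p of the probes on chromosomes 10, 17, 5 and 3 ran from 0.653 to 0.843 in limma. The chromosome 17 interval, which contains a probe of Tmem181a on its strand, had a second probe with the other sign (-0.20 ± 0.10). The reverse case was chr13:23488256-23488626 F, at least 1.63-fold lower in the transgenic samples, which read -5.43, -5.56 and -4.72 in wild type and -6.01, -6.23 and -5.96 in transgenic samples (limma, adjusted p = 0.683).

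The differences of the 2 strands of an interval were hardly related. In 376 pairs both strands were tested, with 1 probe taken for each strand by its mean level. The log2 differences of F and R had the same sign in 206 pairs (54.8%), with Pearson's r = 0.05 and Spearman's rho = 0.03 across pairs. Across the 150 names with at least 2 tested probes on 1 strand, the differences of 2 probes had the same sign in 94 (62.7%), with r = 0.30 and rho = 0.22. The latter r was 0.22 over the 148 names outside the surroundings of Ifi204, and 0.15 (rho = 0.10) over the 122 names with both probes above background on all 6 arrays. Each of these is a description across intervals that share all 6 arrays and many of which overlap.

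**Figure D5:**
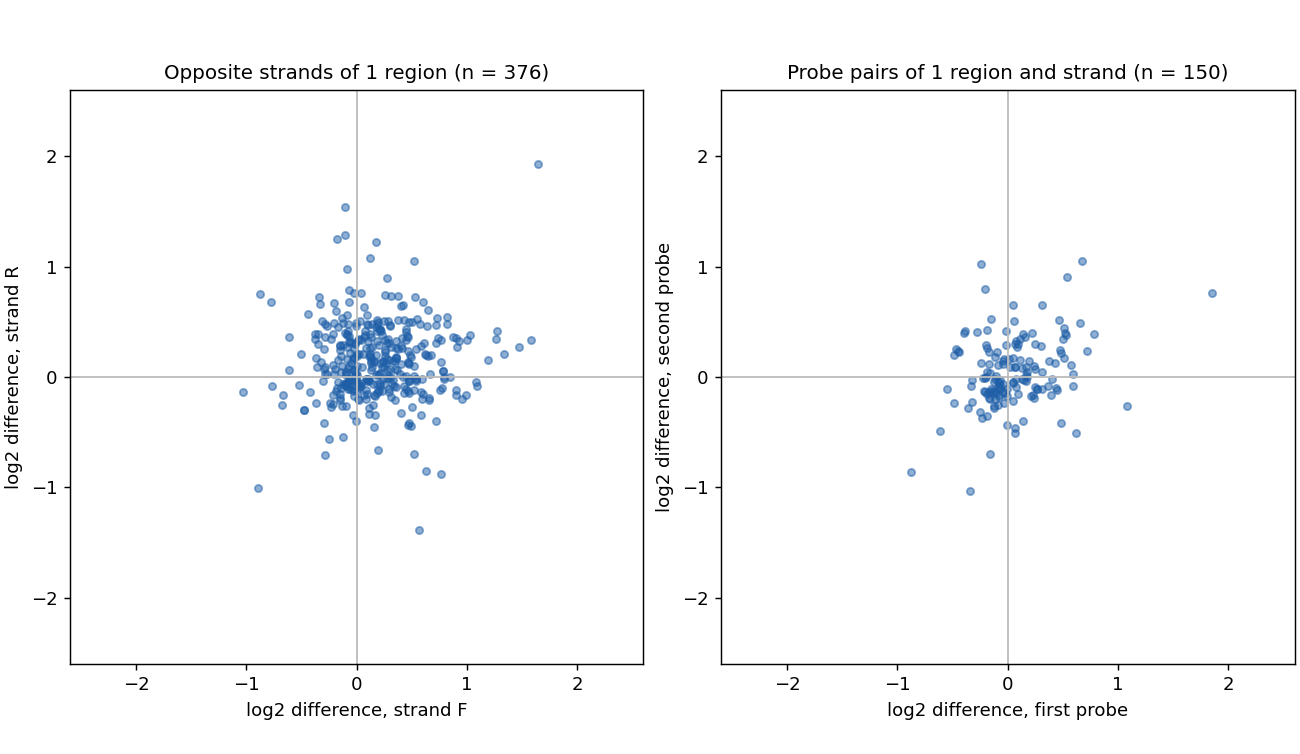
The log2 difference, transgenic minus wild type, of strand F against strand R for 376 regions (left), and of 1 probe against another of the same region and strand for 150 names (right). The points on the left show no slope (r = 0.05), and those on the right a weak one (r = 0.30).

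Individual pairs went both ways, and none of the 6 with the smallest p for both strands had a called probe. Here the probe with the smallest p stands for its strand, which was not the brightest one in every case. In chr1:173250734-173259306, F read -5.43, -4.66 and -5.18 in wild type and -4.32, -4.32 and -4.35 in transgenic samples, a log2 difference of 0.76 ± 0.20 (limma, adjusted p = 0.629). R read -3.30, -3.15 and -2.97 against -3.89, -3.46 and -4.70, a difference of -0.88 ± 0.31 (limma, adjusted p = 0.843). Neither strand's groups overlapped, and their directions were opposite. F was above background on 2 wild-type arrays.

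In chr2:143988645-143993945 the probes of both strands sit almost end to end, F at chr2:143990687-143990746 and R at chr2:143990624-143990683. F read -1.54, -0.98 and -0.93 in wild type and -0.75, -0.78 and -0.45 in transgenic samples, a difference of 0.49 ± 0.20. R read -4.48, -4.28 and -4.00 against -4.71, -4.57 and -4.80, a difference of -0.44 ± 0.15. Both pairs of groups were apart and in opposite directions (limma, adjusted p = 0.843 and 0.829). In chr4:56013597-56020622 the probes overlap, F at chr4:56018153-56018212 and R at chr4:56018129-56018188. F read 2.77, 3.82 and 3.75 in wild type and 4.07, 3.97 and 4.46 in transgenic samples. The groups of F were apart and those of R overlapped. The log2 difference was 0.72 ± 0.31 for F and -0.40 ± 0.16 for R. Without wild-type replicate 1 they were 0.38 and -0.51.

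The remaining 3 pairs had both strands on the same side. In chr18:3003075-3016150 both strands were lower, F by a log2 difference of -0.89 ± 0.36 and R of -1.01 ± 0.25 (limma, adjusted p = 0.843 and 0.586). The groups of F overlapped and those of R were apart. R read 1.65, 1.77 and 1.77 in wild type and 0.88, 1.13 and 0.16 in transgenic samples, and the transgenic samples were spread more widely than the wild-type ones. In chr11:120079199-120130099 the differences were 0.26 ± 0.11 for F and 0.30 ± 0.14 for R, whose probe was above background on 2 wild-type arrays. The groups of F were apart and those of R overlapped. A brighter R probe there had 0.24 ± 0.15, also with overlapping groups. In chr4:128207615-128242898, next to Csmd2, they were 0.38 ± 0.17 for F and 0.73 ± 0.33 for R, where R was 0.36 without wild-type replicate 1. The groups of this F probe overlapped and those of R were apart. The brighter F probe of that interval had 0.53 ± 0.42, also with overlapping groups, and 0.02 without wild-type replicate 1.

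Intervals with many probes showed how far probes of 1 name differed. In chr14:65720392-65769859 R, 4 of 6 probes were tested, with log2 differences of 0.77 ± 0.18, 0.24 ± 0.15, -0.45 ± 0.33 and -0.06 ± 0.25, and the other two passed the background on at most 1 array. The first of the 4 passed on 1 wild-type and all 3 transgenic arrays. In chr12:45415565-45423519 F, close to Pnpla8 on the same strand, the 4 differences were -0.61 ± 0.36, -0.11 ± 0.15, -0.08 ± 0.12 and -0.09 ± 0.19. In chr11:112898724-113062945 R, which contains a probe of the named gene 2610035D17Rik on its strand (0.31), the 3 differences were 0.91 ± 0.45, 0.32 ± 0.22 and 0.53 ± 0.39. The first interval held both signs, the others 1 sign each, and no probe of the 3 passed the test (limma, adjusted p from 0.501 to 0.958). Of the chromosome 14 probes only that with -0.06 had a given position, and of the chromosome 12 probes only that with -0.08. The others carry the name of the interval, but their place inside it is not given.

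The differences of regions and of the genes beside them were weakly related. For 430 region probes the nearest tested gene probe lay under 10000 bases away on the same strand, and across them the log2 differences of region and gene had r = 0.28, which was 0.12 over the 426 outside the surroundings of Ifi204. For the 269 with that gene probe on the opposite strand r was 0.01. Where the gene probe lay inside the interval, r was 0.11 on the same strand (258 probes) and 0.05 on the opposite one (222 probes). At 10000 to 50000 bases it was 0.09 and -0.02, at 50000 to 200000 bases 0.04 on either strand, and beyond that -0.06 on the same strand (75 probes) and 0.32 on the opposite one (49 probes). Several of these values moved with 1 array. Without wild-type replicate 1, r inside the interval was 0.10 on the same and 0.02 on the opposite strand. Under 10000 bases it was 0.34 and 0.13, and at 10000 to 50000 bases 0.23 and -0.005. At 50000 to 200000 bases it was 0.11 and 0.08, and beyond that 0.13 and 0.40. The surroundings of Ifi204 are included in these values. No region probe lay within 50 kb of any of the 11 called probes. Near Nmu and Kdr, 4 region probes lay within 500 kb, and the only tested one, chr5:77239012-77271614 F, had a log2 difference of -0.10 ± 0.16.

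Long noncoding RNAs with names of their own gave a similar picture. Of the 24 region probes in intervals over 13 such genes, 20 were tested, 12 higher and 8 lower, with log2 differences from -0.26 to 0.44, a median of 0.01, and none with an unadjusted p under 0.05 (limma). Among these, chr11:3538125-3554450 R, over Tug1, a widely expressed long noncoding RNA, had -0.26 ± 0.21, and chr1:162965309-162970704 F, over Gas5, had -0.24 ± 0.20. At the other end, chrX:100745320-100819322 R, over Ftx, had 0.44 ± 0.41. The gene probes for the listed RNAs were in the same range: 40 of 50 were on the array, 37 were tested, 15 higher and 22 lower, with a median of -0.05. None was called and 1 had an unadjusted p under 0.05 in limma. That was Snhg14, the host transcript of the imprinted small nucleolar RNAs next to Ube3a, with 1.81, 1.87 and 1.78 in wild type and 1.48, 1.66 and 1.28 in transgenic samples, a log2 difference of -0.35 ± 0.12 (limma, adjusted p = 0.833). Snhg14 had 3 probes on the array, of which this one stands for the gene. The region probes over Snhg14 had opposite signs, 0.11 ± 0.19 and -0.25 ± 0.13.

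Probes for a few known RNAs were printed on the array beside the regions, as lincRNA without an interval name of this form. Of 11 such probes, 6 were tested and none was called. The smallest p was that of NRON, a noncoding repressor of the transcription factor NFAT, whose log2 values differed by 0.54 ± 0.12 (limma, unadjusted p = 0.0042, adjusted p = 0.464). NEAT1, the scaffold RNA of paraspeckles, had -0.18 ± 0.12 and TUG1 -0.07 ± 0.11.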

How the data were processed

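The software that read the single-colour arrays was Feature Extraction 10.7.1.1, per the file headers, or 9.5.1.1, per the submitters' processing notes, with probes placed on build mm9. The deposited spot values are intensity values from which that software had already subtracted background, per the file headers. The authors' value table of intensity values matched a quantile normalization of these signals within 0.01 log2 for at least 99.935% of the values of each array and served as an alternative.

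After removal of control spots and of spots flagged as outliers, each probe's spots were averaged, and its log2 value was expressed relative to the 75th percentile of the array. The fit (limma 3.58.1 under R 4.3.3, empirical Bayes, adjusted p under 0.05) took probes that passed the background on every array of either genotype. Its steps were tested on simulated data. The region probes, gene lists and naming rule were chosen with earlier results of these data known. Named were up to 8 uncalled probes a side by smallest p, up to 6 a side detected in 1 genotype alone, the 6 strand pairs with the smallest larger p, the 3 names with most tested probes, and probes near Nmu, Kdr or called probes. A fold for a probe below background sets the brighter mean against the dimmest signal well above background on each array. It is no lower bound where a spot that did not pass was brighter than that signal. Genes were named through a RefSeq table (GRCm38.p6, names only). Sequences were copied from the scanner files. No reference genome was used here. The number of arrays limits the precision.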

Additional observations from a re-analysis of the deposited data

How the results depend on the processing

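No sample pairs were fitted: the replicate numbers only name the samples in the order of their records, and the labels do not say what the numbers in the titles mark. Of the region probes, 0 were called under every alternative except array weights, with 2 called (both on chromosome 1 beside Ifi204, adjusted p = 0.0233 and 0.042, limma), and an adjusted p under 0.1, with 1. Over all probes the calls were 40 after normexp, 4 without a filter, 23 with only probes above background on all 6 arrays, 34 with an intensity trend, 94 with array weights and 45 at an adjusted p under 0.1, and 0 to 10 when leaving out 1 sample. Calls over all probes were 0 without wild-type replicate 3, transgenic replicate 1 or transgenic replicate 2. Region probes with groups apart numbered 559 without a filter (12.56%, where all probes had 12.62%). On the shared slide they numbered 705 (26.8%, where all probes had 27.0%). When leaving out 1 sample they numbered 574 to 705 (21.8% to 26.8%), where all probes had 21.9% to 27.0%. Fewer samples make separation more frequent. Both strands of a pair were detected in 496 pairs on at least 1 array and in 485 with the flag for a positive and significant signal.

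The genotype difference in the median level of the region probes was 0.065 over all arrays and -0.056 on the shared slide and without wild-type replicate 1 (range when leaving out 1 sample: -0.056 to 0.15). With slide as a block that array has no weight, so the fit equals leaving it out. Of 714 values for 51 named probes, 698 kept direction and call, 2 became called, and 14 in 5 probes changed sign. In chr12:45415565-45423519 F, 3 probes read 0.038, 0.0054 and 0.094 with slide as a block, on the shared slide and without wild-type replicate 1, and 0.027, 0.012 and 0.073 with array weights (ranges when leaving out 1 sample: -0.24 to 0.038, -0.16 to 0.0054 and -0.24 to 0.094). In chr14:65720392-65769859 R, 1 probe read 0.21 without wild-type replicate 3 (range -0.28 to 0.21), and in chr15:73455424-73477275 R, 1 read 0.057 without transgenic replicate 1 (range -0.24 to 0.057). The cause was not tested. Signal over background limits the region probes: their median signal was 12.3 units on wild-type replicate 1 and 23.0 to 26.7 on the other arrays, close to the 9.14 to 10.6 units of the dimmest probe that passed.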
